A study of Danio rerio with 30 samples.

Results

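The genes described here are ca2, ca15b, cahz, slc4a2a, slc12a2 and kcnj1a.1, 6 genes of acid-base and chloride transport in the intestine of the adult zebrafish. They were chosen by name, and every spot whose gene symbol is a member or an older synonym of it was taken. This gave 10 of the 23232 spots of the array. Each spot holds a long oligonucleotide probe made from the transcript whose GenBank number the files give. Ca2 has the probes BG303549 and BI840178, ca15b (zgc:77106 in the files) has BM103127, and cahz has U55177 and AW077607 (wu:fj65c09 in the files). Slc4a2a (slc4a2 in the files) has BI885558, BI473340 and AW419638, slc12a2 (zgc:85961) has BC071283, and kcnj1a.1 (kcnj1) has BC055133.

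The intestine moves acid, base and salt across its epithelium. Carbonic anhydrases speed the conversion of carbon dioxide and water into bicarbonate and a proton, and so feed the exchangers that carry these ions. Anion exchangers of the SLC4 family swap bicarbonate for chloride, the cotransporter encoded by slc12a2 brings sodium, potassium and chloride into the cell, and inward rectifier potassium channels such as that of kcnj1a.1 let the potassium out again. In the intestine of teleost fish, bicarbonate secretion and salt uptake draw on members of these families. Ca2 and cahz encode cytosolic carbonic anhydrases, ca15b encodes a carbonic anhydrase of the membrane-bound CA15 type, and slc4a2a encodes an anion exchanger of the AE2 type.

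The study cut the whole intestine of wild-type male fish about a year old into 7 segments of roughly the same length. S1 and S2 come from the rostral intestinal bulb and S3 and S4 from the mid-intestine, and the 3 last segments are caudal intestine. Each array carried Cy5-labelled RNA of a segment, pooled over several fish, together with Cy3-labelled RNA of whole adult wild-type fish, for which the labels give 9 parts male to 1 part female RNA. There were 5 arrays each of S1, S2, S3 and S4, 4 of S5, 3 of S6 and 3 of S7, and the labels call them biological replicates. No array has the dyes the other way round, and any dye bias of a probe is therefore part of its ratio. All values are log2 ratios of Cy5 to Cy3 after background correction and loess unless a brightness is named, so 0 means the same signal in segment and whole fish, and levels of different probes are not compared.

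The Cy5 signal was above the background at 14.9% to 89.9% of spots in S6 and S7, against 37.8% to 69.6% in S1-S5. The 6 arrays of S6 and S7 stood apart in the reference dye, where their Cy3 signals had a mean correlation of 0.135 with the S1-S5 arrays, and the mean within S1-S5 was 0.927. Spot areas were 80 pixels on these arrays, against 120 to 460 pixels in S1-S5. For this reason S1-S5 were fitted alone (24 arrays, 19479 probes) and S6 and S7 are given apart, from a fit of all 30 arrays (21395 probes). The defining genes of enterocytes, 6 of the 10 listed with 7 probes, had a mean log2 ratio of -0.64 to 0.07 on the S6 and S7 arrays and of 1.01 to 3.09 on the S1-S5 arrays. In bulk RNA, fewer cells of a type and less RNA per cell cannot be told apart.

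Of the 10 spots, 9 passed the filter for dim probes in both fits. The exception was BI840178 of ca2, which exceeded the background in neither dye on any of the 24 arrays of S1-S5, and its Cy5 on 1 of 3 S6 arrays and 0 of 3 S7 arrays. Its log2 ratios stayed between -0.22 and 0.60 in S1-S5 and it is not described further.

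**Figure D1:**
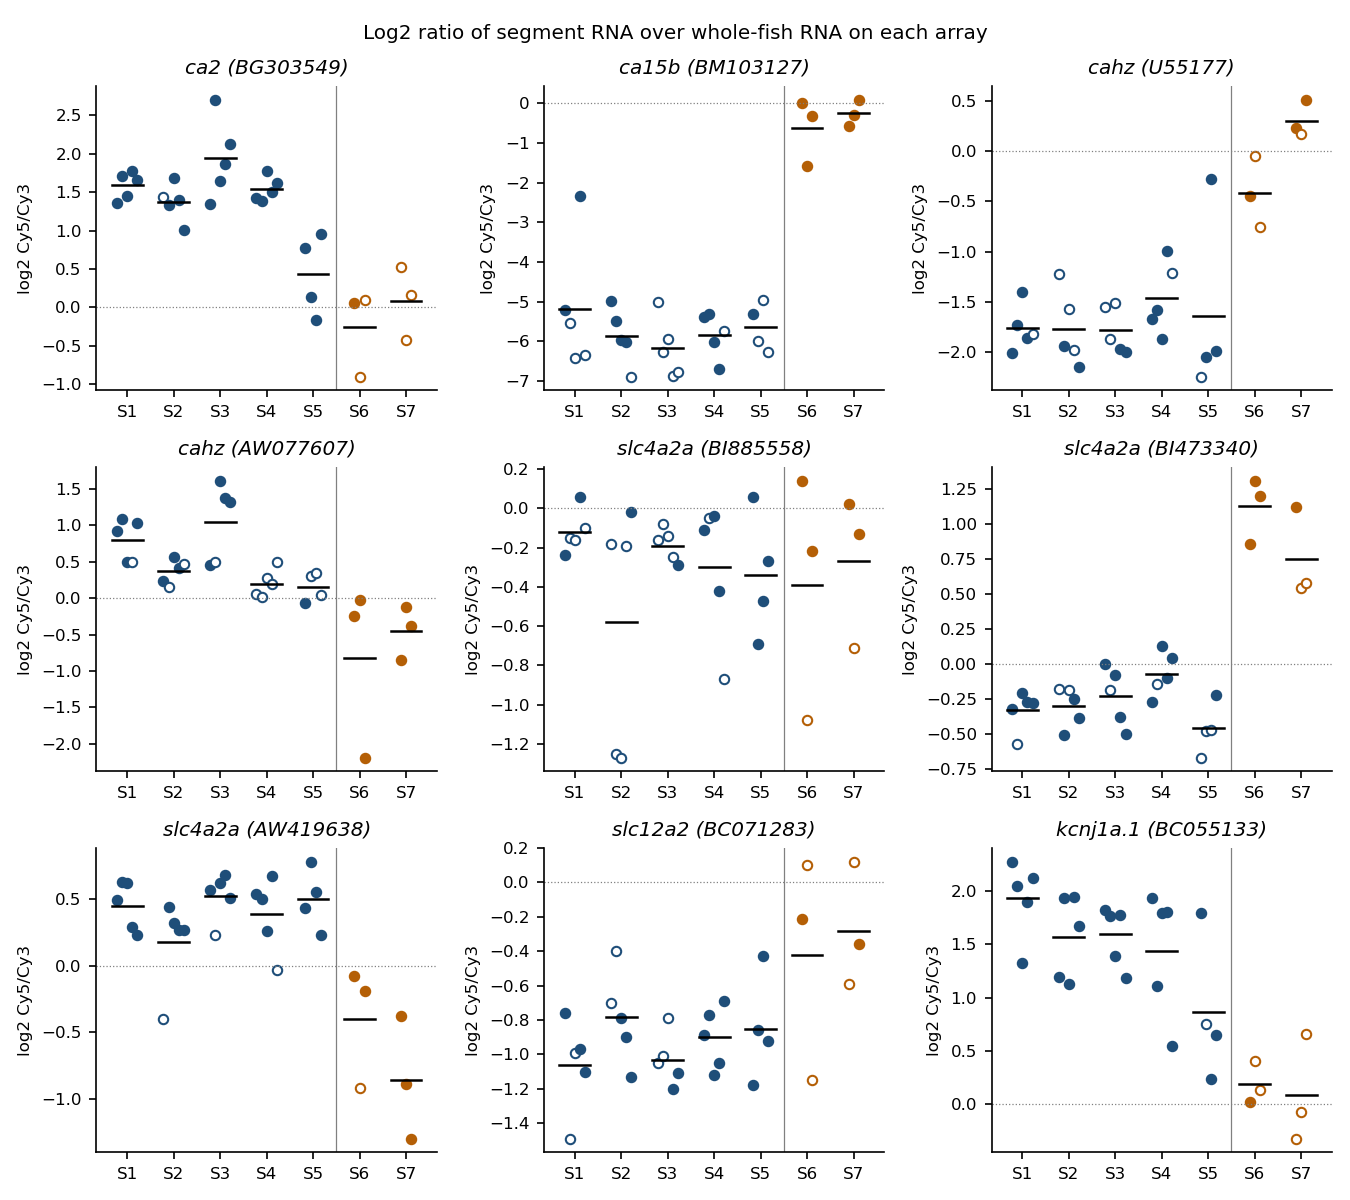
Log2 Cy5/Cy3 (vertical axis) on each array of the segments S1 to S7 (horizontal axis) for the 9 tested probes, with filled points where the Cy5 signal exceeded the background, open points where it did not, and a black line at the mean of the segment. The ca2 probe lies between -0.16 and 0.96 in S5 and between 1.01 and 2.70 in S1-S4, while the ca15b probe lies at -2.34 or below throughout S1-S5. The vertical axes differ between panels.

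Along S1-S5, ca2 was the member with the clearest segmental difference. It stood above the whole fish in S1 to S4 and close to it in S5. The log2 ratios of ca2 probe BG303549 were 0.77, 0.14, -0.16 and 0.96 in S5. They were 1.42, 1.38, 1.77, 1.5 and 1.62 in S4, and over the 20 arrays of S1-S4 the lowest was 1.01, the median 1.56 and the highest 2.70. All S5 arrays lay below all S1-S4 arrays. The Cy5 brightness over background had a median of 3079 (1271 to 4531) in S5 and of 6819 (1485 to 41414) in S1-S4, and these ranges overlap. In S5 the probe was above background on 4 of 4 arrays in both dyes. In S1-S4 it was so on 19 of 20 in Cy5, but on only 10 of 20 in Cy3. By segment, Cy3 passed on 1 of 5 arrays in S1, 4 in S2, 2 in S3 and 3 in S4. Median Cy3 brightness was 1649 (1453 to 2408) in S5 and 1707 (582 to 4730) in S1-S4. Passing did not follow brightness, since Cy3 did not pass at 3724 on S3 replicate 1 and passed at 582 on S4 replicate 2. With the whole-fish signal above background on part of the arrays only, the sizes of the S1-S4 ratios and of the S5 difference are not exact.

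Ca2 averaged 0.43 ± 0.52 in S5 (SD, n = 4) and 1.61 ± 0.35 in S1-S4 (SD, n = 20). The log2 difference of S5 against S1-S4 was -1.18 (standard error 0.185, limma adjusted p = 0.000195), with a 95% interval of -1.54 to -0.82. Ca2 was the only called member in this contrast, 1 of 9 probes, against 2.82% of all tested probes called lower and 2.71% called higher. S5 against S4 alone gave -1.11 (adjusted p = 0.00848), where 0.560% of all probes were called lower. Without S5 replicate 2 this difference fell short of the threshold (-1.01, adjusted p = 0.0532), as it did with median centring, scale normalization and the authors' values. Leaving out any single array kept the S5 against S1-S4 difference of ca2 between -1.36 and -0.99, with adjusted p-values up to 0.00315. The difference rests on 1 probe, and genes with nearby spot numbers and similar ratios are given under other observations.

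The S1 to S4 levels of ca2 were close to each other. Ca2 averaged 1.59 ± 0.17 in S1 and 1.37 ± 0.24 in S2, and it averaged 1.94 ± 0.51 in S3 and 1.54 ± 0.16 in S4 (SD, n = 5 each). None of the steps between these neighbours passed the test. The widest was S3 against S2 with a log2 difference of 0.57 and an adjusted p of 0.253. The high mean of S3 included replicate 2 at 2.70, with the other 4 arrays between 1.35 and 2.13.

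The enterocyte markers are given beside ca2 because several of them were lower in S5 too. Of their 7 probes, 3 were called lower and 0 higher in S5 against S1-S4, with a median log2 difference of -0.78, against -0.04 over all tested probes. Those called were apoa4a (-2.68, adjusted p = 3.13e-07), a secreted apolipoprotein, slc15a1b (-1.60, adjusted p = 3.43e-05), a peptide transporter, and fabp1b.1 (-1.46, adjusted p = 0.0154), a fatty acid binding protein. Fabp2 (-0.33, adjusted p = 0.435) and the brush border gene vil1 (-0.71 and 0.07, adjusted p = 0.166 and 0.899) were not called. The Cy5 signal was saturated on 9 of 24 arrays for apoa4a, 19 for fabp1b.1, 22 for fabp2 and 23 for apoa1a, so the differences of these probes, and the median, which is that of apoa1a, are not exact and a difference may be hidden. Slc15a1b, saturated on 1 array, and vil1, on 0, are not limited in this way. The summed Cy5 brightness of the 7 probes ranged from 96289 to 137406 in S5 and from 107144 to 338427 in S1-S4. The part of enterocyte content in the ca2 difference was not tested. Spots were large on all S4 and S5 arrays and of mixed size in S1-S3. Among S1-S3 arrays ca2 averaged 1.65 with small spots (n = 7) and 1.62 with large spots (n = 8). On the large-spot arrays alone the S5 against S1-S4 difference was -1.13 (adjusted p = 0.00203).

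**Figure D2:**
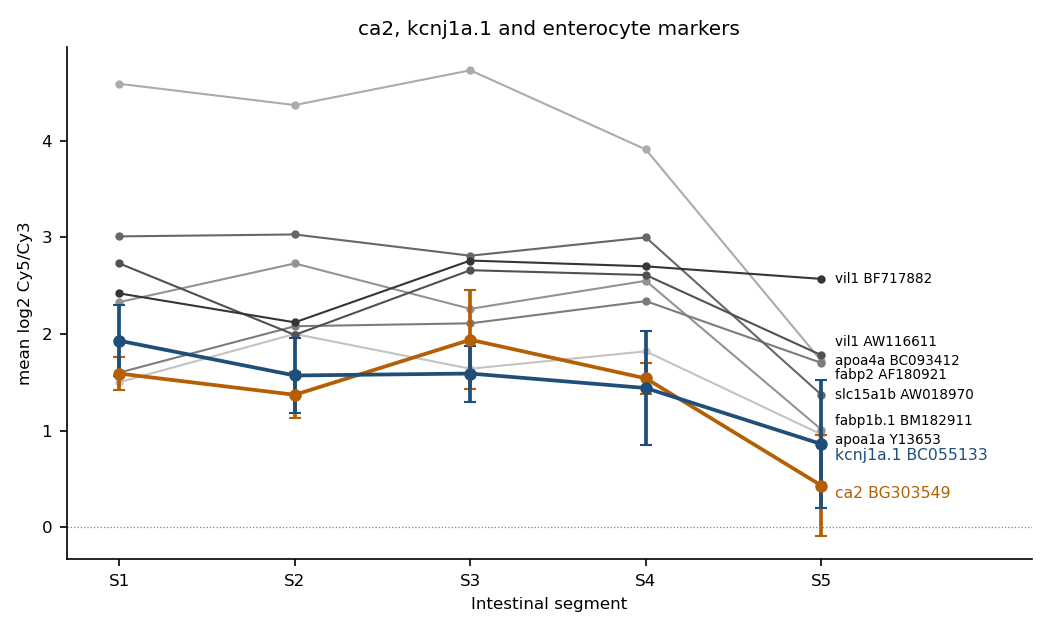
Mean log2 Cy5/Cy3 (vertical axis) in S1 to S5 (horizontal axis) of ca2 (orange) and kcnj1a.1 (blue), with bars for the SD over 4 or 5 arrays, and of the 7 enterocyte marker probes (grey, means only). The ca2 mean is 0.43 in S5, and the apoa4a mean is 1.72 in S5 and 3.91 in S4.

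The other cytosolic enzyme, cahz, gave opposite signs on its 2 probes. Cahz probe U55177 lay below the whole fish throughout S1-S5. Its means were -1.76 ± 0.23 in S1, -1.77 ± 0.37 in S2 and -1.78 ± 0.23 in S3 (SD, n = 5 each). The S4 mean was -1.46 ± 0.36 (SD, n = 5) and the S5 mean -1.64 ± 0.91 (SD, n = 4). In S5 the 4 arrays read -2.24, -2.05, -0.28 and -1.99, so that replicate 3 stood above the other 3 and above every other S1-S5 array. The Cy5 signal of this probe exceeded the background on 15 of 24 arrays and the Cy3 signal on 24 of 24. No step between neighbouring segments passed the test for it.

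Cahz probe AW077607 lay slightly above the whole fish and differed among the segments. It read 0.92, 1.09, 0.49, 0.49 and 1.03 in S1, 0.23, 0.15, 0.56, 0.42 and 0.47 in S2, and 0.46, 0.50, 1.61, 1.37 and 1.32 in S3. It then read 0.06, 0.01, 0.27, 0.19 and 0.50 in S4 and -0.07, 0.30, 0.34 and 0.04 in S5. S1 and S3 held the high arrays, and S4 and S5 lay near 0, with overlap between all neighbours. The F test over S1-S5 called it (F = 7.98, limma adjusted p = 0.0109). It is dim, with the Cy5 signal over background on 12 of 24 arrays and on 0 of 5 in S4. S4 against S3 gave a log2 difference of -0.85 (adjusted p = 0.137), which was not called. With dim S4 arrays raised to the lowest brightness that counts as above background, the Cy5 means differed 1.66-fold. This size is not exact, since S4 replicate 5 had a Cy5 brightness of 799, against 365 to 922 in S3.

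The F test over S1-S5 thus called 2 of the 9 member probes, ca2 (F = 12.1, adjusted p = 0.00128) and cahz AW077607, against 6.17% of all tested probes. Both calls were lost when the arrays were scaled to each other, and that of cahz also with all 30 arrays in the fit. Since AW077607 and U55177 disagree, cahz is given per probe only.

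Red blood cells are rich in carbonic anhydrase, and their markers are given beside cahz. The 6 probes (6 of the 8 listed genes) had a mean log2 ratio between -2.96 and -1.28 on the S1-S5 arrays. Against the whole fish, 5 of the 6 were called lower by at least 2-fold, against 13.0% of all tested probes. The globin gene hbba1 was the lowest at -3.85, while epb41b went the other way at 0.45. In S5 against S1-S4, 0 of the 6 were called. In S6 and S7, where the ratio of cahz U55177 was higher than in S1-S5, the mean log2 ratio of these probes was -0.74 to -0.01. In each segment 5 of the 6, all but epb41b, were called higher, against 26.1% of all tested probes in S6 and 26.8% in S7. Their summed Cy5 brightness was 4555 to 23923 in S6 and 4530 to 5024 in S7, against 4624 to 15745 in S1-S5, and these ranges overlap. In S7, 3 of the 6 probes exceeded the background in Cy5 on no array. The part of red blood cells in the cahz values was not tested.

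Ca15b was far below the whole fish along S1-S5. In S5 the arrays read -5.30, -5.99, -4.97 and -6.27. Over the 20 arrays of S1-S4 the lowest was -6.89, the median -5.96 and the highest -2.34. The mean over the S1-S5 segments was -5.74 (standard error 0.182, adjusted p = 1.47e-18). The Cy3 brightness of the whole fish was 12579 to 64978, saturated on 5 of 24 arrays, while the Cy5 signal exceeded the background on 11 of 24 arrays and on 0 of 5 in S3. On the saturated arrays the ratio is an upper limit. No difference among S1-S5 was called (F test, limma adjusted p = 0.744), and S5 against S1-S4 gave 0.13 with a 95% interval of -0.82 to 1.08.

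The high value belonged to S1 replicate 4, at -2.34, against -5.22, -5.55, -6.43 and -6.35 in the other S1 arrays. Its Cy5 brightness was 15430, where the other 23 arrays of S1-S5 reached 2006 at most. In zebrafish, ca15b is known as a transcript of germ cells, and a list of 24 oocyte and germ cell genes, written after this value was seen, was read on the same array. Of these genes 20 have a probe, 22 probes in all. On S1 replicate 4, 10 of the 22 probes stood above each of the other 23 arrays, where 6.43% of all tested probes did. The egg coat gene zp3 read -0.54 there, against -7.51 to -3.02 on the other 23 arrays, and the claudin genes cldnd and cldng read -1.25 and -2.36, against highest values elsewhere of -3.88 and -4.71. The egg coat gene zpcx read -2.00, against a highest value of -4.25, and buc, a gene of the oocyte's Balbiani body, read -1.73, against -2.98. Of the 10, zpcx and cldng are also among the 3 genes with ratios most like those of ca15b over S1-S5, given below. Their place among the 10 is therefore not independent of ca15b. The h1m probe BI710423, also among the 10, was not above background in Cy5 on S1 replicate 4. The other 12 of the 22 probes were within the range of the other 23 arrays. They include the egg coat genes zp2.3 and zp2.6 (both probes of it) and the oocyte genes gdf9 and figla, besides germ cell genes such as dazl, ddx4, dnd1, nanos3 and piwil1. Zp2.3 read -0.26, against a median of -0.20 elsewhere. The methods describe the segment pools as male, and the part of these genes in the ca15b value was not tested. Leaving out any single array kept the ca15b mean against the whole fish between -5.88 and -5.68.

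**Figure D3:**
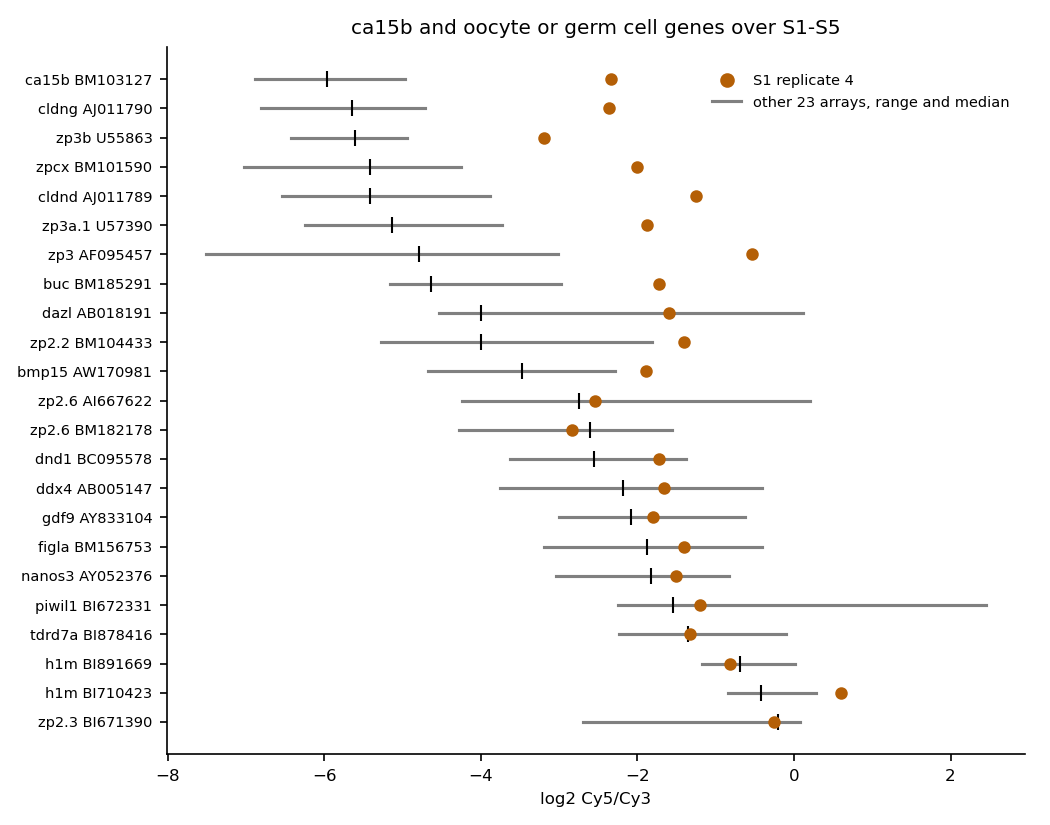
Log2 Cy5/Cy3 (horizontal axis) of ca15b and of 22 probes of oocyte and germ cell genes (rows), with S1 replicate 4 as an orange point and the other 23 arrays of S1-S5 as a grey range with the median as a tick. The point of ca15b lies at -2.34, to the right of its range, and the same holds for 10 of the 22 probes.

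The anion exchanger slc4a2a was near the level of the whole fish on all 3 probes, and no difference among S1-S5 was called on any of them. The mean over S1-S5 was -0.31 for BI885558 (adjusted p = 0.000358), -0.28 for BI473340 (adjusted p = 3.95e-07) and 0.41 for AW419638 (adjusted p = 1.13e-07). These differ from 0 beyond the spread between arrays but fall short of 2-fold, except for BI885558 in the authors' values (-1.50), and the third probe has the other sign. Probe AW419638 exceeded the background in Cy5 on 21 of 24 arrays, BI473340 on 16 and BI885558 on 11. The values of AW419638 were 0.43, 0.78, 0.55 and 0.23 in S5, and over S1-S4 the lowest was -0.40, the median 0.47 and the highest 0.68. The S5 and S1-S4 arrays overlapped. In S5 against S1-S4 the intervals were -0.42 to 0.32 for BI885558, -0.43 to -0.03 for BI473340 (adjusted p = 0.216) and -0.16 to 0.38 for AW419638. In the authors' values the differences were 1.15 for BI885558 and 0.55 for AW419638, neither of them called. These differences and the -1.50 include authors' values from arrays with a negative Cy5 brightness after background subtraction. For BI885558 they were -6.66 on S2 replicate 1, -8.06 on S2 replicate 3 and -8.3 on S4 replicate 5. The other S1-S5 arrays gave -3.42 to -0.1. For AW419638, S2 replicate 1 gave -7.27, against -0.16 to 0.76 on the other S1-S5 arrays.

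The sodium-potassium-chloride cotransporter slc12a2 lay below the whole fish at an even level. In S5 the arrays read -1.18, -0.86, -0.43 and -0.92. Over S1-S4 the lowest was -1.49, the median -0.98 and the highest -0.40. The groups overlapped, and S5 against S1-S4 gave 0.10 with an interval of -0.16 to 0.36. The mean against the whole fish was -0.92 (standard error 0.0498, adjusted p = 2.62e-14), lower in 24 of 24 arrays and just short of the 2-fold limit. It passed that limit without background correction, with median centring and in the authors' values. Its Cy5 signal exceeded the background on 17 of 24 arrays.

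The potassium channel gene kcnj1a.1 was above the whole fish in all 24 arrays of S1-S5. It read 2.27, 2.04, 1.32, 1.89 and 2.12 in S1, 1.19, 1.93, 1.13, 1.94 and 1.67 in S2, and 1.82, 1.76, 1.39, 1.77 and 1.18 in S3. It read 1.93, 1.11, 1.79, 1.8 and 0.55 in S4, and 1.79, 0.75, 0.24 and 0.65 in S5. Among S1 to S5 the mean was lowest in S5 (0.86) and highest in S1 (1.93), but S5 replicate 1 sat among the S1-S4 arrays. The log2 difference of S5 against S1-S4 was -0.77 (standard error 0.242, adjusted p = 0.064), which missed the threshold. Without S5 replicate 1 it was -1.08 (adjusted p = 0.00782), without S4 replicate 5 it was -0.83 (0.0261) and without S1 replicate 3 it was -0.81 (0.0483). On the large-spot arrays alone it was -0.65 (adjusted p = 0.227). The difference was called without background correction and with scale normalization between arrays. The Cy5 signal exceeded the background on 23 of 24 arrays. The Cy3 signal did so on 17 of 24, with 2 of 5 in S2 and 2 of 4 in S5. Its median brightness was 405 (108 to 1112), so the sizes of these ratios and differences are not exact.

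Between the mid-intestine and the bulb no member was called. In S3-S4 against S1-S2, 0 of 9 probes were called, against 2.06% of all tested probes, and the number of members with an unadjusted p under 0.05 was 0 in limma. The difference for ca2 was 0.26, with an interval of -0.04 to 0.56. The steps S2 against S1, S3 against S2 and S4 against S3 called 0 of 9 members each as well, against 0.816%, 0.354% and 0.0257% of all tested probes.

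Against the whole fish, ca2 and kcnj1a.1 were higher and ca15b and cahz U55177 were lower by at least 2-fold over S1-S5. Ca2 averaged 1.37 (standard error 0.069, adjusted p = 7.23e-15, higher in 23 of 24 arrays), and kcnj1a.1 averaged 1.47 (standard error 0.0904, adjusted p = 3.05e-13). Cahz U55177 averaged -1.68 (standard error 0.0887, adjusted p = 1.78e-14, lower in 24 of 24 arrays). These 2 of 9 probes higher stand against 8.27% of all tested probes, and the 2 of 9 lower against 13.0%. These means weight the 5 segments equally. Those of ca2 and kcnj1a.1 are not exact, since their Cy3 signals exceeded the background on only 14 and 17 of 24 arrays.

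**Figure D4:**
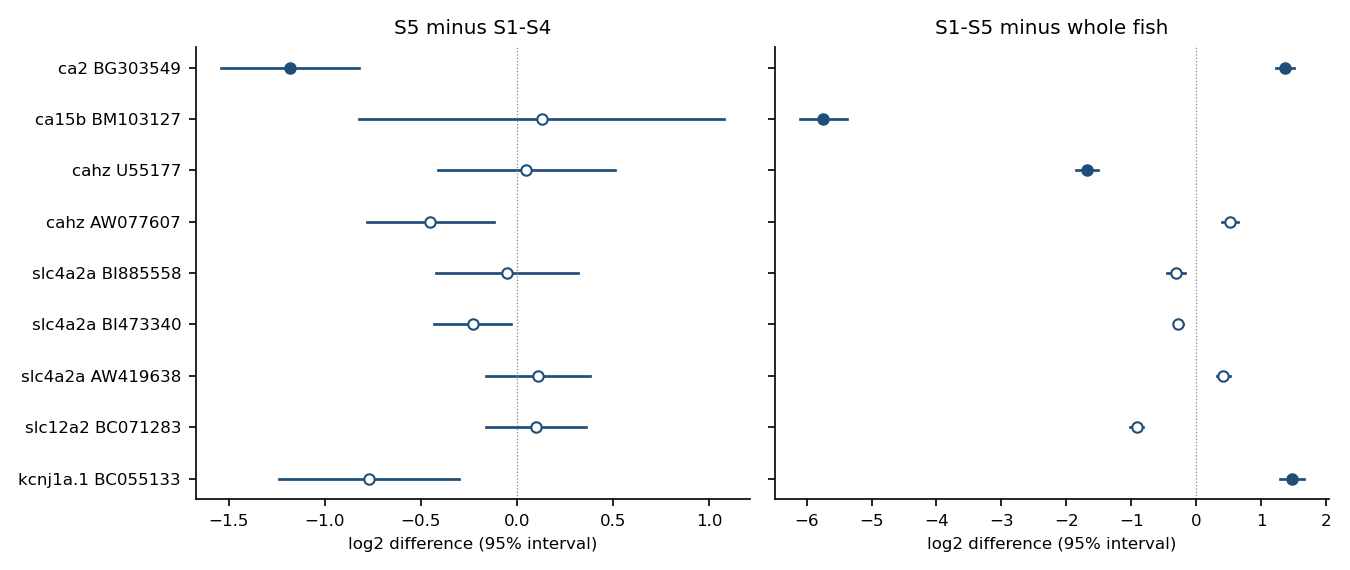
Log2 difference (horizontal axes) with its 95% interval for the 9 tested member probes (rows), of S5 against S1-S4 on the left and of the mean of S1-S5 against the whole fish on the right, with filled points for called differences. On the left the ca2 point at -1.18 is called, and on the right ca2, ca15b, cahz U55177 and kcnj1a.1 are.

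The segments after S5 read differently, and the arrays changed with them. In S6, all members but slc4a2a BI473340 had means between -0.82 and 0.19, and in S7 between -0.86 and 0.75 with BI473340 included. Against S1-S5, 4 of 9 probes were called higher and 4 lower in S6, and the same 8 probes had the same directions in S7. Over all tested probes 26.1% were called higher and 25.2% lower in S6, and 26.8% higher and 25.6% lower in S7. The segment and the kind of array cannot be told apart here. Spots listed as actin had a median Cy3 percentile of 46.6 to 96 on the S6 and S7 arrays, against 98.4 to 99.3 on the S1-S5 arrays. S6 replicate 2, with the lowest of these percentiles, correlated at most at 0.0587 with another array of its segment. For the other S6 and S7 arrays this highest correlation was 0.302 to 0.379, and for the S1-S5 arrays 0.831 to 0.963. The arrays of S6 and S7 thus agreed poorly within their segments. Whether the spots of these 6 arrays carry the listed probes, or their reference the same RNA, was not tested, and the S6 and S7 values below are those of spots listed under a gene. Without S6 replicate 2, 7 of 9 probes were called in S6, with slc12a2 the call that was lost. The Cy5 signal was also compared after Aquantile normalization, which gives the mean log2 brightness of both dyes the same distribution on all arrays. This scale is called Cy5 alone below. It is not free of the reference dye, since the loess step and the mean brightness both use the Cy3 signal. For ca15b, S1 replicate 4 had 12.654 on it and S7 replicate 4 had 14.736, though the Cy5 brightness was 15430 and 3688. The scale therefore cannot show how much the reference dye carried. Of the 8 calls, 4 in S6 and 4 in S7 were also called in the same direction on Cy5 alone. The share of all tested probes that kept their call on Cy5 alone was not counted.

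The spot listed as ca2 was lower in both segments on either scale. It read 0.06, -0.90 and 0.09 in S6 and 0.52, -0.43 and 0.16 in S7, against -0.16 to 2.70 in S1-S5. The Cy5 brightness over background was 168 to 415 in S6 and 191 to 479 in S7, against 1271 to 41414 in S1-S5, with no overlap. The ratio differed by -1.62 in S6 (adjusted p = 1.38e-06), and on Cy5 alone it was -3.36. In S6 the Cy5 signal exceeded the background on 1 of 3 arrays, so these sizes are not exact. That array was replicate 2, where 89.9% of all spots did so. In S7 the ratio differed by -1.29 (adjusted p = 3.28e-05). The Cy5 signal there exceeded the background on 0 of 3 arrays. With these arrays raised to the lowest brightness that counts as above background, the Cy5 means differed 7.18-fold from S1-S5. This is not a firm lower limit. On S2 replicate 1 the ca2 spot missed the background threshold at 11.891 on this log2 scale, above the raised S7 mean of 9.401. In the ratio, the S6 and S7 arrays overlapped those of S5. The 7 enterocyte probes were all called lower in S6 and in S7 too, with a summed Cy5 brightness of 10378 to 25928, against 96289 to 338427 in S1-S5, and their part in the values of ca2 and kcnj1a.1 was not tested.

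Kcnj1a.1 moved in the same direction. It read 0.02, 0.41 and 0.13 in S6 and -0.32, -0.07 and 0.66 in S7, against 0.24 to 2.27 in S1-S5. The log2 difference was -1.29 in S6 (adjusted p = 0.000201), and -2.08 on Cy5 alone. In S6 the Cy5 signal exceeded the background on 1 of 3 arrays, again replicate 2, so these sizes are not exact. In S7 the ratio differed by -1.38 (adjusted p = 8.22e-05), with the Cy5 signal above the background on 0 of 3 arrays. With these arrays raised in the same way as for ca2, the Cy5 means differed 1.91-fold from S1-S5, again not a firm lower limit.

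The spot listed as ca15b was closer to the whole fish in both segments than in S1-S5. It read 0.02, -1.58 and -0.31 in S6 and -0.57, -0.28 and 0.09 in S7, all above every S1-S5 array. It exceeded S1-S5 by 5.11 in S6 (adjusted p = 2.9e-09), and the difference of S7 was 5.49 (adjusted p = 8.4e-10). Both dyes moved. The Cy5 brightness was 781 to 4598 in S6 and 3688 to 14610 in S7, against 287 to 15430 in S1-S5. The Cy3 brightness of the whole fish was 1695 to 6756 on the S6 arrays and 6877 to 12800 on the S7 arrays, against 12579 to 64978 on the S1-S5 arrays. On Cy5 alone the differences were 3.13 in S6 and 5.30 in S7. None of these sizes is exact, since in S1-S5 the Cy3 signal was saturated on 5 of 24 arrays and the Cy5 signal exceeded the background on 11. The 22 oocyte and germ cell probes had means between -1.41 (cldnd) and 0.37 in S6 and between -2.05 (zp3a.1) and 0.73 (dnd1) in S7.

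Cahz and slc4a2a did not give a direction in S6 and S7 that their probes share. Cahz U55177 differed from S1-S5 by 1.27 in S6 (adjusted p = 0.000153), while S7 gave 1.98 (adjusted p = 2.47e-07). Its Cy5 signal exceeded the background on 1 of 3 arrays in S6 and 2 of 3 in S7. AW077607 differed by -1.34 in S6 (adjusted p = 0.000165), while S7 gave -0.97 (adjusted p = 0.00356). Without S6 replicate 5 the S6 difference of AW077607 was -0.65 (adjusted p = 0.0239). On Cy5 alone cahz U55177 gave 0.26 in S6 (adjusted p = 0.433), which was not called, and 1.36 in S7. On Cy5 alone the sign of AW077607 turned, to 3.95 in S6 and 4.72 in S7. Its brightness was 882 to 3482 in Cy5 and 2323 to 5505 in Cy3 in S6, against 24 to 2133 and 28 to 1199 in S1-S5, where the Cy5 ranges overlap and the Cy3 ranges do not. Of slc4a2a, BI473340 gave 1.40 in S6 (adjusted p = 3.91e-09), while S7 gave 1.03 (adjusted p = 8.02e-07), and on Cy5 alone the S7 call was lost (0.69, adjusted p = 0.0645). The Cy5 signal of BI473340 exceeded the background on 3 of 3 arrays in S6 and 1 of 3 in S7. AW419638 gave -0.80 in S6 (adjusted p = 0.00075), while S7 gave -1.27 (adjusted p = 2.31e-06), and BI885558 differed by -0.08 and 0.03. On Cy5 alone AW419638 and BI885558 were positive in both segments, and the values of the 3 probes do not settle the level of slc4a2a in S6 and S7. BI473340 was also the only member called 2-fold higher than the whole fish in S6 (1.13, adjusted p = 3.55e-06), against 1.31% of all probes.

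Slc12a2 was slightly higher, with a difference of 0.50 in S6 (adjusted p = 0.031), while S7 gave 0.65 (adjusted p = 0.00631). It read -0.21, 0.10 and -1.15 in S6 and -0.59, 0.12 and -0.36 in S7, against -1.49 to -0.40 in S1-S5, and both segments overlapped S1-S5. The S6 call was lost without S6 replicate 2 (0.40, adjusted p = 0.154) or S6 replicate 3 (0.24, adjusted p = 0.361), and the S7 call without S7 replicate 4 (0.45, adjusted p = 0.1). On Cy5 alone the differences were 0.11 and -0.24. The Cy5 signal of slc12a2 exceeded the background on 1 of 3 arrays in S6 and 1 of 3 in S7, so these sizes are not exact.

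S7 against S6 called 0 of 9 members, against 8.41% of all tested probes. By unadjusted p under 0.05, cahz U55177 alone differed (0.72, limma adjusted p = 0.192), with no overlap of the 3 and 3 arrays, and it was singled out after its value was seen. On Cy5 alone 3 members were called, but the share of all tested probes called on that scale was not counted. The F test over the 7 segments, with the Bonferroni corrected p under 0.1 of the study, called 6 of 9 members against 14.2% of all tested probes. By limma adjusted p after Bonferroni these were ca2 (0.000128), ca15b (1.82e-07), cahz U55177 (0.00656), slc4a2a BI473340 (1.22e-05), slc4a2a AW419638 (0.0806) and kcnj1a.1 (0.088). A one-way F test with no moderation of the spread, the kind the study used, was run on the ratios used here. It called 4 of 9, without slc4a2a AW419638 and kcnj1a.1, and its share over all tested probes was not counted. In the authors' values the moderated test lost cahz U55177 and slc4a2a AW419638 instead. Slc4a2a AW419638 and kcnj1a.1 sat close to the limit and were lost in 23 and 22 of the 30 fits that each left out 1 array. Cahz U55177 was lost without S7 replicate 5 (limma adjusted p = 0.188).

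**Figure D5:**
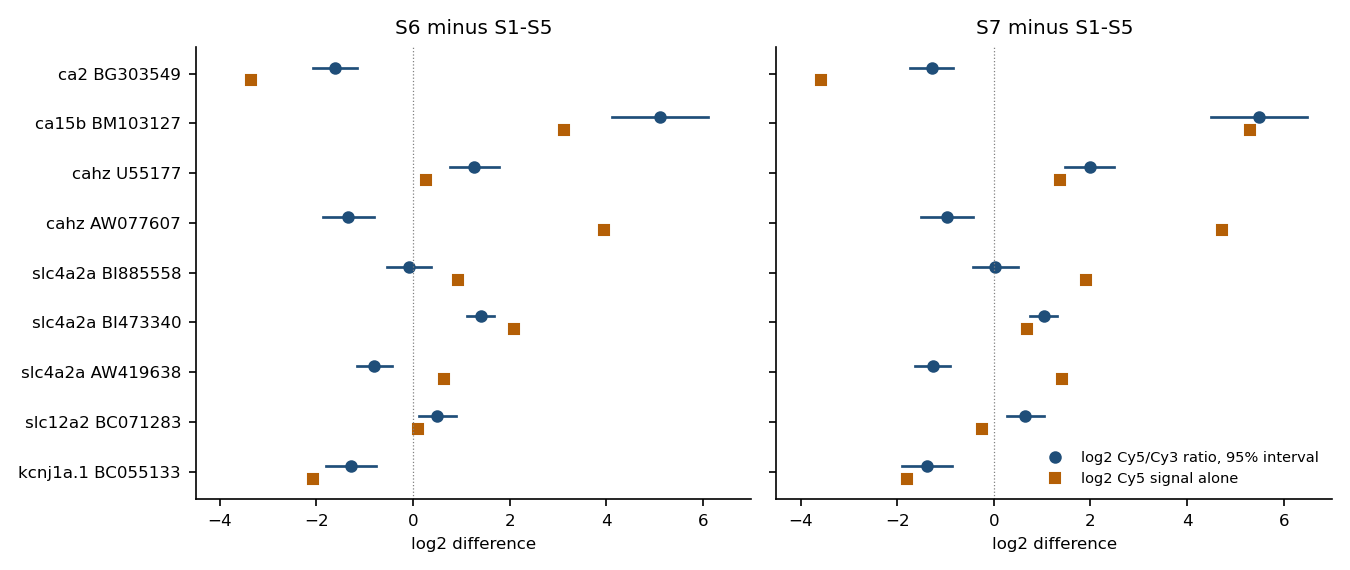
Log2 difference (horizontal axes) of S6 (left) and S7 (right) against S1-S5 for the 9 tested member probes (rows), as the Cy5/Cy3 ratio with its 95% interval (blue circles) and as the Cy5 signal alone (orange squares, no interval). The Cy5 signal alone is that after loess and Aquantile normalization, which use both dyes. Ca2 and kcnj1a.1 lie left of 0 and ca15b right of 0 on either scale, while cahz AW077607 lies at -1.34 on the ratio and at 3.95 on Cy5 alone in S6.

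The other genes of the pathway came from lists of 101 carbonic anhydrases, bicarbonate transporters, sodium-proton exchangers, cation-chloride cotransporters, chloride channels and inward rectifier potassium channels. Only 17 of them have a probe, 19 probes in all, of which 15 were tested over S1-S5. In S5 against S1-S4, 1 was called higher and 1 lower of the 15 (2.71% and 2.82% of all tested probes), with a median log2 difference of -0.15, against -0.04 over all tested probes. The higher one was slc26a5, an anion transporter of the SLC26 family (0.73, adjusted p = 0.0143), with a mean of 0.74 in S5, against -0.27 to 0.32 in S1 to S4. The lower one was slc12a3, the sodium-chloride cotransporter (adjusted p = 0.021). Its Cy5 signal exceeded the background on 0 of 4 S5 arrays and on 5 of 24 arrays in all, so no size is given. In S3-S4 against S1-S2 none of the 15 was called. Against the whole fish, 0 of the 15 were higher and 5 lower by at least 2-fold, against 8.27% and 13.0% of all tested probes.

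Those 5 were the carbonic anhydrase-related gene ca10a (-1.54, adjusted p = 8.11e-12), the carbonic anhydrase gene ca7 (adjusted p = 6.51e-12), the red cell anion exchanger slc4a1a (-1.45, adjusted p = 4.52e-12), the sodium-proton exchanger slc9a7 on probe BG303257 (-1.32, adjusted p = 1.99e-14) and the kidney-type chloride channel clcnk on probe AI667530 (-2.15, adjusted p = 4.98e-15). The Cy5 signal of ca7 exceeded the background on 0 of 24 arrays, so no size is given for it. That of ca10a did so on 8 of 24 arrays and that of slc4a1a on 12, so their sizes are not exact. The other clcnk probe, BC053277, read 0.59 and did not share this direction. Of the 18 probes tested over all segments, 7 were higher and 3 lower in S6 than in S1-S5, and 6 were higher and 3 lower in S7, where the shares over all tested probes were 26.1% and 25.2% in S6 and 26.8% and 25.6% in S7. The ionocyte markers, cells of the skin and gill that carry several of these transporters, had mean log2 ratios of -0.08 to 0.22 in S1-S5 (5 of 7 genes), and the kidney tubule markers -0.82 to -0.11 (5 of 8 genes, of which slc12a3 and clcnk are also in the pathway lists).

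The genes whose log2 ratios over the 24 arrays of S1-S5 were most like those of a member were found by Pearson's r. The brightest tested probe stood for each member, and the probe with the highest r for each other gene. Probes of other genes needed a Cy5 signal above background on at least 12 of the 24 arrays. These arrays share the reference RNA and the segment differences, and r is a description. For ca2 they were rpap3 (r = 0.888), apoa4a (0.853) and dennd5b (0.843). For kcnj1a.1 they were msrb2 (0.942), sycp3 (0.873) and ugt5a2 (0.849), for slc12a2 brd8b (0.779), rtn4a (0.756) and plscr3b (0.747), and for slc4a2a AW419638 brd3a (0.739), wif1 (0.721) and tm9sf4 (0.716). For cahz U55177 they were pvalb1 (0.824), smyd1a (0.814) and rnf14 (0.807). For ca15b they were zpcx (0.951), cldng (0.943) and acp5a (0.943), and without S1 replicate 4 the same pairs gave 0.888, 0.857 and 0.853.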

How the data were processed

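The authors deposited spot and local background intensities in both dyes without normalization, and spot areas in pixels. The deposited log2 values are the authors' Cy5/Cy3 ratio scaled per array, which the series file repeats rounded. The methods describe labelling through aminoallyl-dUTP and the labels direct labelling with dye-dUTP, and the scanning software is not given in the sources used here. Segment pools are called biological replicates, so p-values measure the spread between pools.

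Background was corrected in limma 3.58.1 (R 4.3.3, data.table package 1.17.8) by normexp with an offset of 50, and ratios were normalized within arrays by loess, with 245 control spots given no weight and left out. A spot was above background when its median exceeded the background median by over 2 SD, and saturated at 65535. Tested probes were above background, in Cy5 or Cy3, in 3 or more arrays of some segment. Every probe was kept apart. Contrasts and F tests came from limma's moderated linear model with Benjamini-Hochberg adjustment over all tested probes, called at 0.05 (F test over 7 segments: Bonferroni, 0.1). The fit was tested on simulated data. A bound sets the bright group's mean log2 Cy5 after Aquantile against the higher of the dim probe's own signal and the lowest signal above background per array. Such bounds are open to dye bias, since no dyes were swapped. They are not firm limits, since a spot can miss the background threshold at a signal above that lowest one. The number of arrays limits the precision.

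Symbols were matched to the RefSeq genes of GRCz12tu. Of 11724 spots with a symbol, 3568 were current, 8022 updated through a synonym and 134 kept. The members and lists were chosen with earlier results of these data known, and the oocyte list after the ca15b values were seen. Named genes are all members, called genes of the pathway lists, markers and the 3 most alike genes per member, and others are named as seen afterwards. Alternatives covered background, normalization, filter, replicate block, each array, spot size and dye.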

Additional observations from a re-analysis of the deposited data

Results flagged for a closer look

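In 2 of the 50 groups of 4 or 5 arrays of a member probe, 1 array lay apart from the rest of its group by more than Dixon's 95% limit. Chance marks about 1 in 20 groups. On cahz U55177, S5 replicate 3 read -0.28, with the other S5 arrays between -2.24 and -1.99. On slc4a2a AW419638, S2 replicate 1 read -0.40, with the other S2 arrays between 0.27 and 0.44, and its Cy5 brightness was -144 after subtraction of the background. Ca15b on S1 replicate 4 was not marked, with a Dixon ratio of 0.704 against a limit of 0.71.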

How the results depend on the processing

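Of the counts of called members, most kept within 1.5 times of the reported count. The shares over all tested probes were not counted under these alternatives. For S5 against S1-S4 the count of 1 became 3 without background correction, with kcnj1a.1 and cahz AW077607 added. It became 2 with scale normalization, with kcnj1a.1 added, and ranged from 1 to 2 when each array was left out. For the F test over S1-S5 the count of 2 became 0 with scale normalization and 1 with all 30 arrays in the fit. For S7 against S6 the count of 0 became 3 on the Cy5 signal alone. On the Cy5 signal alone the sign turned for cahz AW077607 (3.95 in S6, 4.72 in S7), slc4a2a BI885558 (0.94 in S6), slc4a2a AW419638 (0.64 in S6, 1.41 in S7) and slc12a2 (-0.24 in S7). The cause was not tested. Fitting with the replicate number as a block moved the count of the F test over 7 segments from 6 to 4 and changed no other count of called members. That count was also 4 with a plain one-way ANOVA, median centring, scale normalization and the authors' values, 5 without the filter and 7 without background correction. Same-numbered arrays of S1-S5 deviated together only weakly, with 16 of 46 pairs at r over 0.1. Their mean r was 0.0555, against -0.0146 for pairs with other numbers, and 9 of the 24 arrays had their best match in a same-numbered array. The F test over 7 segments gave 4 to 6 when each array was left out. Its calls of slc4a2a AW419638 and kcnj1a.1 were lost in 23 and 22 of the 30 fits that each left out 1 array. Of 2160 single values with an array left out, 2105 kept their call and none that was called turned its sign, and of 666 under other settings 626 kept their call. Spot size as a block and the large-spot arrays alone were chosen after seeing the data and left the ca2 difference of S5 at -1.06 and -1.13. Probes dim in Cy5, such as cahz AW077607 and ca15b in S1-S5, limit what differences can be read.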

Other observations

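Ca2 read 2.70 on S3 replicate 2, where its Cy5 brightness was 41414, against at most 11544 on the other 23 arrays of S1-S5. Of the genes most like ca2, rpap3 and dennd5b have spot numbers in the files that differ from that of ca2 by 85 and 35, of 23232 spots, and that of apoa4a differs by 5506. The S5 means of rpap3 and dennd5b were -0.15 and -0.35, against 0.18 to 0.51 and 0.09 to 0.58 in S1 to S4. The part of spot position in the ca2 difference was not tested. The exocrine pancreas markers, 10 of 12 genes with 10 tested probes, had 9 probes called higher in S5 than in S1-S4, against 2.71% of all tested probes. In S3-S4 against S1-S2, 9 were called higher, against 210 of all 19479. The mean log2 ratio was 1.26 to 1.95 in S5, 1.25 to 1.88 in S4 and -0.12 to 0.35 in S1. Cy5 was saturated on 24 of 24 S1-S5 arrays for cel.2, ela2, ela3l and prss59.1. It was saturated on 19 to 23 for the others except cpa4 probe BC074071, so these ratios do not measure the size of a rise in segment RNA. That cpa4 probe, saturated on 1 array, was called higher in both (1.06 and 0.95).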
